A study of Mus musculus with 14 samples.

Results

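The expression of liver genes in male CD-1 mice was compared between 8 weeks of age (M8) and 3 weeks of age (M3). CD-1 is an outbred mouse stock. The comparison rested on 2 of the 14 arrays of the series, which were selected because their channels held the M8 and the M3 pools, and no other array set these ages against each other in males. Each M8 pool held liver RNA of 6 mice and each M3 pool held liver RNA of 5 mice. A separate pair of pools was hybridized to each array, and the dyes were swapped between the arrays. The mice had no treatment or allele in the labels and were bought as pups of 7 days with surrogate mothers, and the hour at which livers were taken is not given in the sources used here. On replicate 1 the M8 pool was labelled green (Alexa 555) and the M3 pool red (Alexa 647), and on replicate 2 the M8 pool was red and the M3 pool green. Other arrays used below held pools of males of 4 weeks (M4, 6 mice) and of females of 8 weeks (F8, 6 mice) and 3 weeks (F3, 5 mice). A pool averages its mice, so the 2 values per gene show the spread between pools, arrays and dye orders together and not that between single animals.

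At 3 weeks a mouse is at the age of weaning, and its liver is still growing. By 8 weeks the animal is sexually mature, most hepatocytes have left the cell cycle, and the male pituitary releases growth hormone in pulses, whereas the female pattern is near continuous. Growth hormone acts through the kinase JAK2 and the transcription factor STAT5, and its pattern sets much of the difference between male and female liver in cytochromes P450, sulfotransferases and secreted proteins.

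Each array carried 39,429 different non-control probes, of which 25,338, standing for 20,671 genes, were well above background in M8 or in M3 on both arrays and were tested. A gene was called up or down when its limma adjusted p was below 0.05 and its ratio exceeded 1.5-fold. No spot of either array was saturated. Between 60.4% and 67.5% of spots were well above background in a channel. Over the 18,853 genes well above background at both ages on both arrays, the median distance between the 2 arrays was 0.16 on the log2 scale, 89.98% of genes lay within 0.5, and the correlation of the 2 arrays across genes was 0.867, a description in which genes are not independent replicates. The direction of the ratio, taken from the dye labels, was checked by the path through the female pools: M8/M3 differed from M8/F8 plus F8/F3 minus M3/F3 by a median of 0.0375 (log2) over 16,881 genes, and by 0.462 when its sign was turned. The sex labels were checked by Y-linked genes on the M8/F8 arrays, which may hold the same M8 pools. There Ddx3y read 6.91 and 6.26, Uty 7.03 and 7.83 and Kdm5d 1.82 and 2.33 (log2 M8/F8). On the M8/M3 arrays, Ddx3y read 0.25 and 0.31, Uty 0.83 and 0.65 and Kdm5d 0.03 and -0.01.

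**Figure D1:**
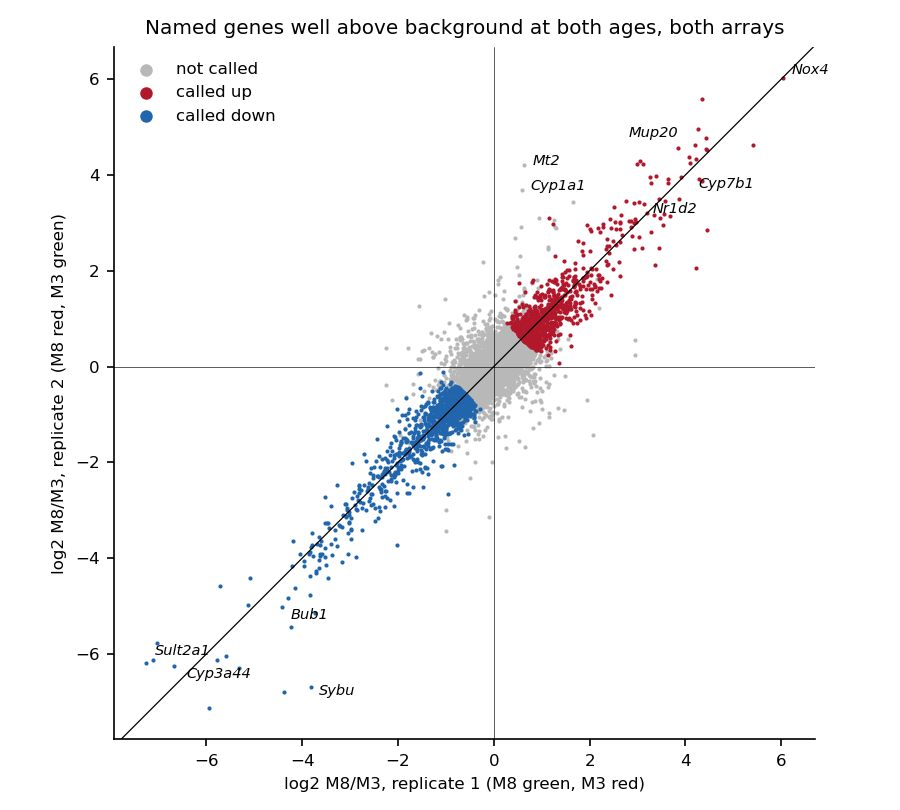
Each point is a named gene well above background at both ages on both arrays, with its log2 M8/M3 ratio on replicate 1 (x axis) and on replicate 2 (y axis), coloured by its call. Most called genes lie near the line of equality, while Mt2 and Cyp1a1 lie above it and Sybu, which was called down, lies below it.

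Of the 20,671 genes tested, 1,776 (8.59%) were called up and 1,793 (8.67%) were called down from 3 to 8 weeks, and each of them had the same direction on both arrays. After normexp background correction the counts were 911 and 950. Among the genes well above background at both ages, 1,577 rose, by a median of 1.86-fold, and 1,446 fell, by a median of 1.93-fold. Changes over 4-fold were found in 174 genes called up and 206 called down. The median log2 ratio of all genes tested was 0.02, and 90% of them lay between -1.01 and 0.92. The counts of list members below are to be read against 8.59% up and 8.67% down. In bulk liver RNA, fewer cells of a type and less RNA per cell cannot be told apart, and this holds for every fall given here.

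The labelled tissue was checked with hepatocyte markers. All 9 measured markers, among them Alb, Ttr, Apoa1, Apob, Cps1, Tat, Ahsg and Hnf4a, were well above background at both ages on both arrays. Ahsg, which encodes the plasma glycoprotein fetuin-A, fell by 1.25 on the log2 scale (-1.83 and -0.66 on replicates 1 and 2). Alb, which encodes albumin, fell by 0.71 (-1.1 and -0.33), with signals of 92,960 and 192,782 in the M8 pools and 198,706 and 242,344 in the M3 pools. The 2 ages did not overlap in Alb, but the M8 pool of replicate 1 read far lower than that of replicate 2, and without replicate 2 only 1 of the 2 genes was called. The other 7 markers were not called, and the median of the list was -0.20.

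Genes with higher expression in adult male than adult female liver formed a group that rose. Of 22 such genes measured, 20 were called up (90.9%) and none was called down, and their median log2 M8/M3 was 2.55 beside 0.02 for all genes tested. They encode pheromone carriers, steroid and fatty acid hydroxylases, complement factors and conjugating enzymes. The list was compiled with earlier results on these arrays known, so its direction is a description of these samples. Of the 2 members not called, Egfr, the epidermal growth factor receptor, read -0.03 and 0.67 on its brightest probe, although 2 of its 3 tested probes were called up, and Ybx2, a germ cell RNA-binding protein, read 0.32 and 0.29 on the 2 arrays.

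Mup20, also known as darcin, is a major urinary protein that acts as a male pheromone. Its processed signal was 370,688 and 225,813 in the M8 pools and 20,234 and 9,151 in the M3 pools. The pools of the 2 ages did not overlap and lay more than 10-fold apart on each array. The log2 ratios were 4.20 and 4.62, a 21.3-fold rise (SE 0.24, limma adjusted p = 0.000178). All 8 Mup genes with a tested probe were called up, from 2.90 (Mup2) to 4.60 (Mup5), with a median log2 ratio of 3.49. The Mup genes are nearly identical in sequence and their probes may share signal, so that these are not 8 independent observations.

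Cytochromes of the male-biased set rose over a wide range. Cyp4a12a, an arachidonic acid hydroxylase, gave signals of 101,504 and 90,362 in M8 and 6,008 and 4,348 in M3, an 18.7-fold rise (log2 ratios 4.08 and 4.38, SE 0.56, adjusted p = 0.00365). Cyp7b1, the oxysterol 7-alpha-hydroxylase of the acidic bile acid pathway, gave 88,708 and 98,147 in M8 and 5,194 and 5,166 in M3, an 18.0-fold rise (log2 ratios 4.09 and 4.25, SE 0.46, adjusted p = 0.00188). In both genes the ages lay far apart and the pools of one age close together. Cyp2d9, a testosterone 16-alpha-hydroxylase, rose by 1.86 (1.88 and 1.84), and Cyp2u1, a fatty acid hydroxylase, rose by 1.37 (1.41 and 1.34). Hsd3b5, a 3-ketosteroid reductase of male liver, rose by 2.25 (2.37 and 2.13, adjusted p = 0.0278), and Elovl3, an elongase of very long chain fatty acids, rose by 3.42 (3.68 and 3.15, adjusted p = 0.00962).

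Among the other male-biased genes, C6, a component of the complement membrane attack complex, gave 9,997 and 10,576 in M8 and 1,424 and 1,286 in M3, a 7.60-fold rise (log2 ratios 2.81 and 3.04, adjusted p = 0.000137). C9 and C8a, further components of that complex, rose 3.82-fold (2.23 and 1.63) and 1.89-fold (1.04 and 0.80). Susd4, a complement regulator, rose 8.06-fold (2.94 and 3.08). Of the glutathione transferases, Gstp1 rose by 2.92 (2.52 and 3.33), Gstp2 by 2.83, Gsta1 by 3.60 and Gsta2 by 3.66, whereas Gsta3 (-0.53 and -0.03), Gsta4 (0.22 and 0.58) and Gstp3 (-2.13 and -0.71) were not called. Gstp1 and Gstp2, and likewise Gsta1 and Gsta2, are close copies whose signals cannot be told apart with certainty.

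**Figure D2:**
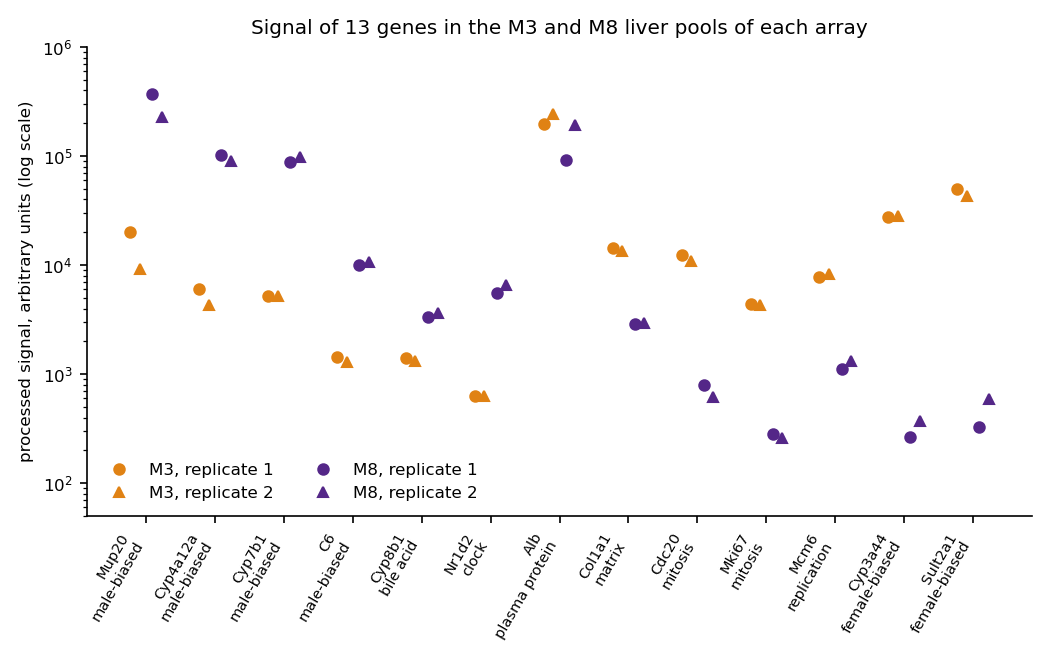
Processed signal on a log scale for 13 genes in the M3 pools (orange) and M8 pools (purple) of replicate 1 (circles) and replicate 2 (triangles). Heights of different genes come from different probes and are not comparable, and within each of the 13 genes the M8 pools do not overlap the M3 pools, with the smallest gap in Alb.

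The largest rise of a named gene above background at both ages was that of Nox4, a NADPH oxidase that generates hydrogen peroxide. Its signal was 6,540 and 7,301 in M8 and 99.2 and 113 in M3 (log2 ratios 6.04 and 6.01, 65.2-fold, adjusted p = 0.00059), and both of its probes were called up. Obp2a, an odorant-binding lipocalin, rose by 4.61 (4.27 and 4.95), and Omd, a small leucine-rich proteoglycan, by 3.93 (3.90 and 3.95). Cfap53, a protein of cilia, rose by 4.21 (3.84 and 4.57) with a wide error (SE 1.1, adjusted p = 0.0481). Among the 15 genes with the largest rise were also Lipn, an acid lipase of skin (5.01), the predicted gene Gm4956 (4.96), the lens crystallin Cryaa (4.49), the olfactory receptor Olfr910 (4.48), the DNA exonuclease Trex2 (4.27), the proton pump Atp12a (4.11) and the reproductive homeobox gene Rhox2e (4.09).

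These last 7 genes were set beside Mup5, itself among the 15 largest rises, so closeness in M8/M3 follows in part from that choice. Their mean ratios lay near that of Mup5 in other comparisons too. Relative to Mup5, the log2 ratio of Cryaa differed by -0.12 for M8/M3, by 0.09 for M8/M4, by -0.20 for F8/F3 and by 0.17 for M8/F8. Lipn read 0.41, 0.20, -0.09 and 0.10 in the same order, and Olfr910 read -0.12, 0.21, -0.29 and 0.25. Over the 7 genes and these comparisons the differences of the means lay between -0.55 and 0.50. On the single arrays of M8/M3, M8/M4 and F8/F3 they lay between -1.0 (Atp12a) and 1.09 (Gm4956). Of the male-biased cytochromes, Cyp7b1 read -0.43, -0.79, -0.94 and 0.50, and Cyp4a12a read -0.37, -1.0, -2.24 and 2.46. Nox4 read 1.4, -0.24, 0.31 and 0.87. M8/M3, M8/M4 and M8/F8 all hold M8 pools, so these values are not independent of each other. Whether Mup transcripts bound to these probes was not tested.

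Genes with higher expression in adult female liver fell in the males. Of 24 measured, 20 were called down (83.3%) and none was called up, with a median log2 M8/M3 of -2.39. With the 2 members that were not above background in M8 set at their lower bound, the measured age over the lowest signals counted as above background, the median was -1.96. Those not called were the cytochrome genes Cyp3a16 (-0.92 and -0.25), Cyp17a1 (-0.59 and 0.01) and Cyp2a4 (0.42 and -0.14) and the estrogen sulfotransferase Sult1e1 (-0.62 and 1.69, above background in M8 on replicate 2 alone). This list, too, was compiled with earlier results known. The authors report that the Cyp3a16 probe cross-hybridizes with Cyp3a11, so its value is not that of Cyp3a16 alone.

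Several genes with the largest falls encode enzymes that conjugate or oxidize steroids and foreign compounds. Sult2a1, which sulfates bile acids and steroids, gave signals of 50,110 and 42,972 in M3 and 329 and 587 in M8, a 106-fold fall (log2 ratios -7.25 and -6.20, SE 0.45, adjusted p = 0.000326). Cyp3a44 gave 27,407 and 28,113 in M3 and 268 and 371 in M8, an 87.9-fold fall (log2 ratios -6.67 and -6.24, SE 0.26, adjusted p = 8.46e-05). No M8 pool came near an M3 pool in either of these genes.

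Relatives of these genes moved with them in part. In the Sult2a family, Sult2a1, Sult2a4 (-6.62), Sult2a2 (-6.40) and Sult2a6 (-5.14) fell, whereas Sult2a8 rose by 1.30 (1.24 and 1.35). Among transporters of organic anions, Slc22a27 fell by 6.53 and Slc22a26 by 4.43, Slc22a29 fell as well (-5.78 and -6.13), whereas Slc22a28 rose by 1.97 (2.03 and 1.91). Of the Cyp4a fatty acid hydroxylases, Cyp4a10, Cyp4a14, Cyp4a31 and Cyp4a32 fell by 2.38, 3.11, 1.94 and 1.03, while Cyp4a12b rose by 3.77. Cyp4a30b, with signals of 40.5 and 50.2 in M8, was not above background in M3 on either array and was at least 1.52-fold higher (adjusted p = 0.000532 for the fitted ratio, not for this bound). All 3 tested Cyp2b genes fell, Cyp2b9 by 3.97, Cyp2b13 by 2.39 and Cyp2b10 by 1.92. Of 8 Cyp3a genes 2 were called, Cyp3a44 and Cyp3a41b (-1.53 and -1.22), and Cyp3a11, a broad drug-metabolizing enzyme, read -0.71 and 0.59. Many of these genes lie in clusters of close copies, and probes may share their signal.

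Other genes among the 15 with the largest fall were Sult3a1, an amine sulfotransferase (-5.33 and -6.29), Hao2, a hydroxyacid oxidase (-4.37 and -6.79), Hsd3b1, a steroid dehydrogenase (-5.13 and -4.99), A1bg, a plasma glycoprotein (-5.08 and -4.40), Rsph4a, a radial spoke protein of cilia (-4.22 and -5.43), and Sybu, a linker of vesicles to kinesin (-3.82 and -6.69). Cux2, a transcription factor that represses male-biased genes in female liver, was not above background in M8 on either array, with signals of 63.1 and 101 in M3, and was at least 1.64-fold lower (adjusted p = 0.000419 for the fitted ratio, not for this bound). Trim24, a nuclear receptor coregulator, fell by 1.09 (-1.1 and -1.08), and Tox, an HMG-box protein, fell by 1.93 (-1.99 and -1.87).

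The same interval in females (F8/F3, 2 arrays of other pools) served to ask where the change differed between the sexes. The contrast M8/M3 minus F8/F3 was called higher in 389 (1.80%) and lower in 347 (1.61%) of 21,588 genes. These counts were 142 and 133 without M8/M3 replicate 1, 184 and 162 without replicate 2, 170 and 252 after normexp background correction, and 209 and 229 with shared pools as a random effect. Of the 1,776 genes called up in males, 343 had a higher change than in females, and of the 1,793 called down, 219 had a lower one. In F8/F3, 796 of the genes called up in males were called up, 9 were called down and 971 were not called. Of the male falls, 933 were also female falls by the same call, 27 were called up in females and 833 were not called there. The share of all genes called in F8/F3 was not counted, so these overlaps have no background to be read against. A gene not called in F8/F3 may still have changed there. The M8/M3 and F8/F3 arrays were scanned on different days. In a contrast added after the data were seen, M8/F8 minus M3/F3 from arrays of the same scan day as M8/M3, the difference was called higher in 428 genes and lower in 399. Those arrays may hold the same M8 and M3 pools as M8/M3, so these counts are not independent of the others.

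Of the 22 male-biased genes, 14 had a higher change in males (63.6%) and none a lower one, and their median F8/F3 was 0.00. Of the 24 female-biased genes, 20 had a lower change in males (83.3%), and their median F8/F3 was 0.60. Both lists were chosen by adult sex bias with earlier results on these arrays known, so these counts follow in large part from that choice. The genes that differed most were Sult3a1, which read -5.81 in males and 3.88 in females, and Sult3a2, which read -3.85 and 4.11 (log2). Cyp3a44 read 0.36 in females beside -6.46 in males. Cyp2b13 read -2.39 in males and 2.30 in females, A1bg read -4.74 and 1.99, and Cux2, at background in M8, read 2.20 in females. In the other direction, Obp2a read 4.61 in males and -0.70 in females, Nat8f5, an acetyltransferase family gene, 2.96 and -1.07, Lama3, a laminin chain, 2.26 and -1.55, and Cspg5, a proteoglycan, 1.74 and -1.68. Mup20 and Cyp7b1 rose in males by 4.41 and 4.17 and read 1.15 and 1.17 in females, and the difference was called for Mup20 and not for Cyp7b1.

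**Figure D3:**
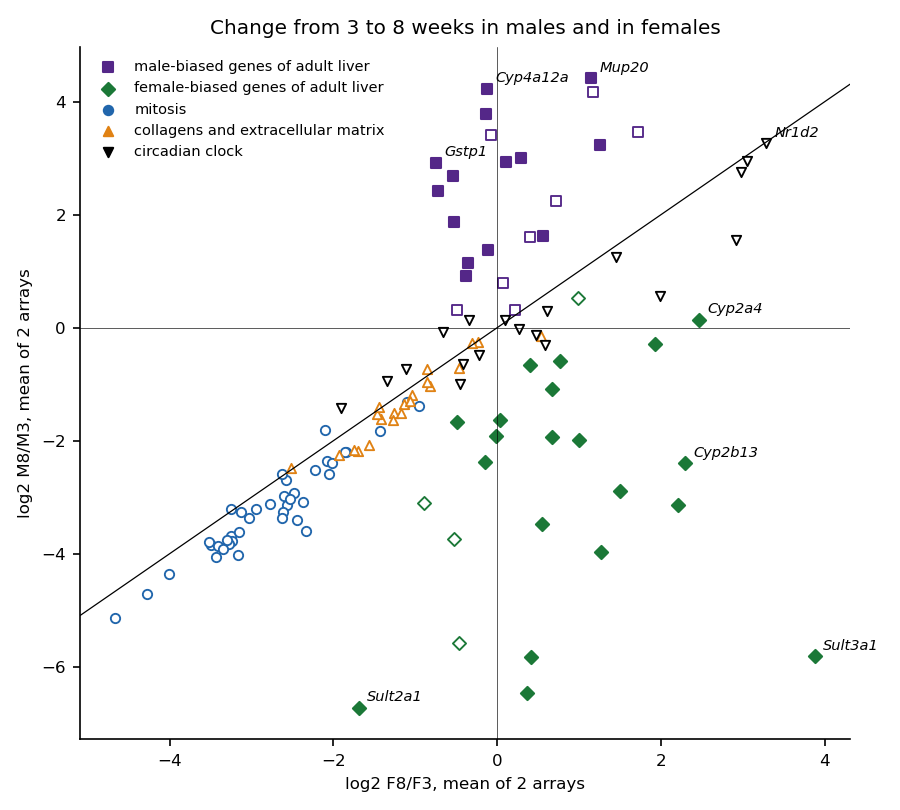
Log2 M8/M3 (y axis) against log2 F8/F3 (x axis), each the mean of 2 arrays, for members of 5 gene lists, with the line of equality. Filled symbols mark genes whose male and female changes were called different, open symbols those where no difference was called, and no mitosis, matrix or clock gene is filled.

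Genes of mitosis fell together. All 40 measured genes were called down (against 8.67% of all genes), with log2 ratios from -4.71 to -1.31 among those above background in M8 and a median of -3.23 over the list. The median was -3.17 with Aurkb, Cdc25c and Cenpf, which were not above background in M8, at their lower bounds. The list spans kinases of mitotic entry, the kinetochore, the spindle and cytokinesis. The summed signal of its probes was 75,061 to 75,378 in the M3 pools and 9,311 to 9,459 in the M8 pools. The median F8/F3 was -2.62, and no gene of the list was called different between the sexes, which does not show that they changed alike.

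Cdc20, the activator of the anaphase-promoting complex, gave signals of 12,436 and 10,896 in M3 and 803 and 613 in M8, a 16.6-fold fall (log2 ratios -3.95 and -4.15, SE 0.34, adjusted p = 0.000693). Mki67, the antigen of the Ki-67 proliferation stain, gave 4,418 and 4,352 in M3 and 283 and 259.6 in M8, a 16.2-fold fall (-3.97 and -4.07, SE 0.21, adjusted p = 0.00017). In both genes the ages lay far apart and the pools of one age close together. Bub1, a kinase of the spindle checkpoint, fell by 4.71 (-4.42 and -5.01), the largest fall among mitosis genes above background at both ages. Foxm1, a transcription factor that activates many genes of mitosis, fell by 3.13 (-3.02 and -3.25), and Cdk1, the kinase that drives mitotic entry, fell by 3.26 (-3.17 and -3.34).

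Promoters of mitosis genes often hold the letters CCAAT, bound by the factor NF-Y, and the letters TTTGAA or TTCGAA, known as the cell cycle genes homology region or CHR. The 250 bases upstream of each gene's start (RefSeq, GRCm38.p6) were searched on both strands. Of the 33 mitosis genes with a promoter in the table, 24 (72.7%) held CCAAT against 34.5% of all 27,025 promoters, 11 (33.3%) held the CHR letters against 17.4%, and 10 (30.3%) held both against 6.21%. Of the 25 DNA replication genes with a promoter, 16 (64%) held CCAAT, 5 (20%) held the CHR letters and 4 (16%) held both. The letters of an E2F site (TTTCGCGC, TTTGGCGC, TTTCCCGC or TTTGCCGC) were found in 6 (24%) of the replication genes and in 1 (3.03%) of the mitosis genes, against 1.91% of all promoters. A match describes letters and does not show a bound site.

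The 4 promoters printed here belong to the mitosis genes well above background at both ages with the largest falls among those whose promoter held both motifs, and they show where the motifs lie. They are chr4:118437344-118437593 (minus strand, Cdc20), chr7:135716380-135716629 (minus strand, Mki67), chr8:22185820-22186069 (minus strand, Ckap2) and chr2:164769679-164769928 (plus strand, Ube2c), written 5′ to 3′ toward the start of the gene with matches to the CCAAT or CHR letters on either strand in capitals.
Cdc20: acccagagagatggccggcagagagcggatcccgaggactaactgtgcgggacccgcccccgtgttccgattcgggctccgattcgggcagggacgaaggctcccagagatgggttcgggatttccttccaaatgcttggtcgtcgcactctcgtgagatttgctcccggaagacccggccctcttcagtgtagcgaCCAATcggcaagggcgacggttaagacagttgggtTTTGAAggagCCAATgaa
Mki67: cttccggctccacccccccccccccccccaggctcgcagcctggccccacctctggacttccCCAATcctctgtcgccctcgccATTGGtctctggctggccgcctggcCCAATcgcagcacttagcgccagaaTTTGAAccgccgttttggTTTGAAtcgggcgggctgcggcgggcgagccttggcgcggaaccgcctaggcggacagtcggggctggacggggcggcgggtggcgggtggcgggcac
Ckap2: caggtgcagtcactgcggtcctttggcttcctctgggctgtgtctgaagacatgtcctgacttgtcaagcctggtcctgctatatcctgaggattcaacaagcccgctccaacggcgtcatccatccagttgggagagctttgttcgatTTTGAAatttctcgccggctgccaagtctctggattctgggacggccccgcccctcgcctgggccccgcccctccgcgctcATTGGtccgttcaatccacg
Ube2c: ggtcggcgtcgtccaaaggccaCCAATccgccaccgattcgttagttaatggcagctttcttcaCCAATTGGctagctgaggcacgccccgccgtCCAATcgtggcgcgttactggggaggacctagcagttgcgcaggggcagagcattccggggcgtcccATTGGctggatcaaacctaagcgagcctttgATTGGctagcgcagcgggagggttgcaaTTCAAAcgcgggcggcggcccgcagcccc
The Cdc20 promoter held 2 CCAAT matches and 1 CHR match, that of Mki67 3 and 2, that of Ckap2 1 and 1 and that of Ube2c 6 and 1. Ckap2, a spindle protein, fell by 3.83 (-3.50 and -4.15), and Ube2c, the ubiquitin-conjugating enzyme of the anaphase-promoting complex, fell by 3.75 (-3.79 and -3.71).

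DNA replication genes fell too. Of 30 measured, 26 (86.7%) were called down and 1 up, with a median log2 ratio of -1.5, or -1.21 with the 2 genes at background in M8 at their lower bounds. The helicase subunit Mcm6 gave 7,789 and 8,276 in M3 and 1,115 and 1,326 in M8 (-2.80 and -2.64, 6.60-fold, adjusted p = 5.59e-05), with no overlap. Uhrf1, which recruits the maintenance DNA methyltransferase, fell by 3.79 (-3.82 and -3.77), the ribonucleotide reductase subunit Rrm2 by 2.58 (-2.63 and -2.52) and the sliding clamp Pcna by 1.03 (-1.0 and -1.06). Tk1 (-0.29 and -0.59) and Dnmt1 (-0.46 and -0.27), which encode thymidine kinase and the maintenance methyltransferase, were not called. The exception was Mcm10, a replication initiation factor, whose probe gave 17,861 and 21,752 in M8 and 3,483 and 3,808 in M3 and rose by 2.44 (2.36 and 2.51, adjusted p = 0.000919), beside 1.55 in F8/F3. Mcm10 had only 1 probe, and whether other transcripts bound to it was not tested.

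Of 16 measured perinatal and imprinted growth genes, 9 (56.2%) were called down and 1 up, with a median of -1.27, or -0.61 with Igf2 and Dlk1, at background in M8, at their bounds. Without replicate 1 or without replicate 2, 6 of them were called down. Igf2bp3, an RNA-binding protein of fetal tissue, fell by 3.42 (-2.87 and -3.96), Gpc3, a proteoglycan that restrains growth, by 3.27 (-3.23 and -3.31), and the imprinted gene Mest by 2.47 (-2.38 and -2.56). Afp, which encodes alpha-fetoprotein, gave 431 and 581 in M3 and 126 and 191 in M8 (-1.77 and -1.60) and did not pass the test (SE 0.54, adjusted p = 0.0933). The gene that rose was Slc38a4, an imprinted amino acid transporter, with 47,618 and 47,176 in M8 and 20,403 and 19,655 in M3 (1.22 and 1.26, adjusted p = 0.00265).

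Collagens and other matrix genes formed a further group that fell. Of 21 measured, 18 (85.7%) were called down and none up, with a median of -1.40 beside -1.18 in F8/F3. Col1a1, a chain of fibrillar collagen, gave 14,351 and 13,510 in M3 and 2,914 and 2,952 in M8, a 4.75-fold fall (log2 ratios -2.30 and -2.19, adjusted p = 0.00188). Col3a1 fell 4.57-fold (-2.19 and -2.19), elastin (Eln) 4.50-fold (-2.22 and -2.12) and the collagen cross-linking oxidase Lox 4.22-fold (-1.99 and -2.16). The proteoglycans Dcn (-0.13 and -0.38) and Bgn (-0.33 and -0.22) and the collagen Col15a1 (-0.06 and -0.25) were not called. Of 10 markers of stellate cells, a source of matrix in liver, 6 were called down, but only 2 without replicate 1. Their summed signal was 32,658 to 36,117 in M3 and 18,157 to 18,284 in M8, with all 10 well above background in M3 and 9 in M8, and their part in the fall of the matrix genes was not tested.

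Most markers of neutrophils and of red blood cell precursors fell. Of 10 neutrophil markers, 9 were called down, with a median of -1.86, among them Ltf, which encodes lactoferrin (-3.56 and -3.32, above background in M8 on replicate 2 alone), the calcium-binding S100a8 (-2.27 and -2.13) and the protease Prtn3 (-1.73 and -1.86). Their summed signal was 5,698 to 6,273 in M3 and 1,508 to 1,884 in M8. When both ages had to be above background, 5 neutrophil and 3 erythroid markers were called down. Of 11 erythroid markers, 7 were called down, including the haemoglobin genes Hbb-bt (-1.61 and -1.64) and Hba-a1 (-1.27 and -1.09) and the anion exchanger Slc4a1 (-2.03 and -1.83). Several erythroid markers, among them the red cell membrane genes Epb42 and Kel, were not above background in M8, and with all such markers at their bounds the median of the erythroid list went from -1.62 to -0.59. Alas2, the erythroid enzyme of heme synthesis, rose, with 12,676 and 11,180 in M8 and 5,032 and 4,214 in M3 (1.33 and 1.41, adjusted p = 0.00229), and read -0.27 in F8/F3.

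Markers of other cell types held fewer called genes. Of 12 markers of Kupffer cells, the resident macrophages, 2 were called down, the scavenger receptor Marco (-2.22 and -2.19) and Adgre1, the F4/80 antigen (-0.60 and -1.12). Called down were also 2 of 12 sinusoidal endothelial markers, 4 of 11 T and NK cell markers, 2 of 7 B cell markers and 2 of 8 bile duct markers, and the chloride channel Cftr of bile duct was called up (1.59 and 1.25). Without replicate 1, none of the B cell and bile duct markers, 2 of the T and NK cell markers and 1 of the endothelial markers were called down, and without replicate 2 none of the B cell and 1 of the bile duct markers. After normexp background correction, 1 endothelial marker, 1 T and NK cell marker and none of the B cell and bile duct markers were called down. Of 4 tested exocrine pancreas markers, the protease gene Ctrb1 was called up (0.39 and 1.05), but not without replicate 2. The adipocyte genes Cfd (3.12 and 5.88), Cidec (1.30 and 2.89) and Retn (0.10 and 4.01), which encode adipsin, a lipid droplet protein and resistin, were not called. In M3, Cfd was above background on replicate 2 alone and Retn on replicate 1 alone, so that their other ratio depends on the background level. The summed signal of the adipocyte markers was 229 and 1,651 in the 2 M8 pools and 99.6 and 136 in the 2 M3 pools.

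**Figure D4:**
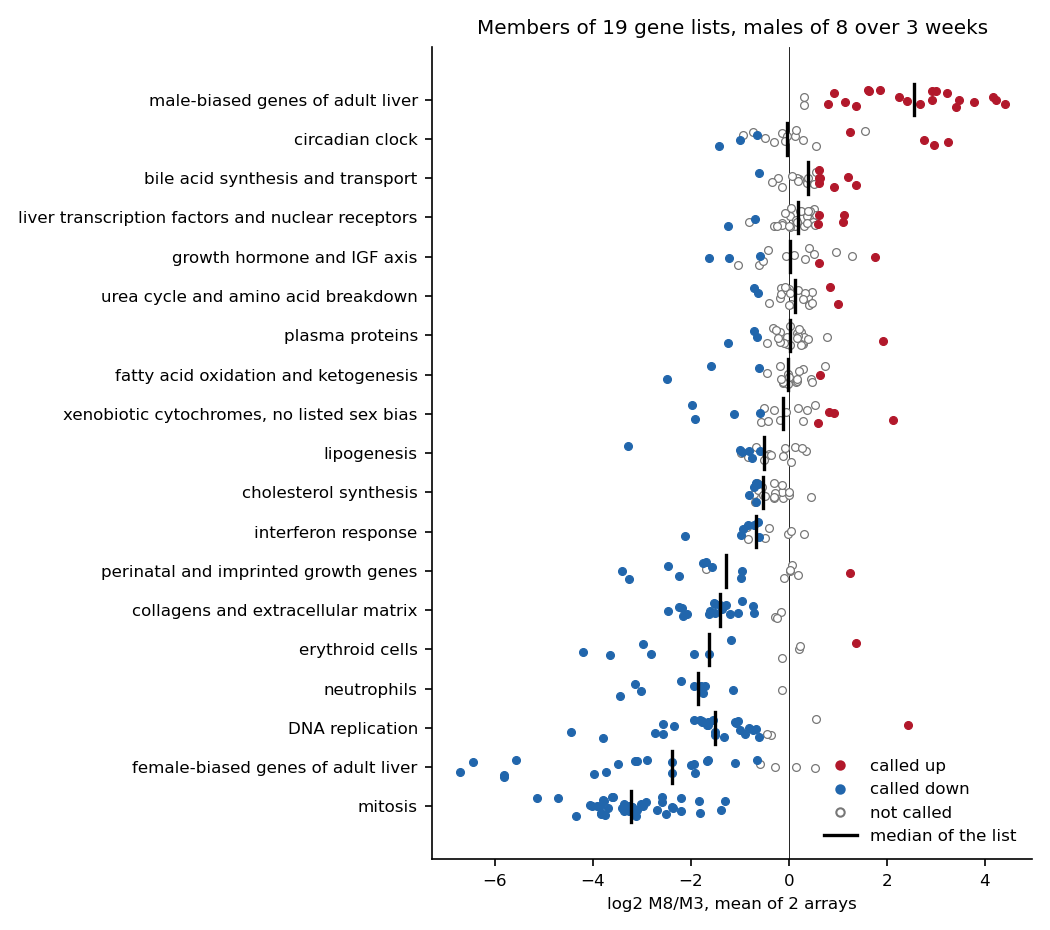
Log2 M8/M3 of each tested member of 19 gene lists (x axis, mean of 2 arrays), with the median of each list as a black bar. Members called up are red, members called down are blue and open circles were not called, members at background at one age are drawn at their fitted value, and the male-biased list lies to the right of 0 while the mitosis list lies to its left.

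Genes of the growth hormone and insulin-like growth factor axis were called in both directions. Of 16 genes, 2 rose (12.5%) and 3 fell (18.8%) by the call, and the median log2 ratio was 0.03. The growth hormone receptor Ghr rose 1.53-fold (0.88 and 0.35, adjusted p = 0.00324), and the signalling genes Jak2 (0.46 and 0.38), Stat5b (0.57 and 0.45) and Stat5a (0.10 and -0.21) were not called. Igf1, the main growth factor that growth hormone induces in liver, gave 68,990 and 78,291 in M8 and 89,816 and 125,613 in M3 (-0.38 and -0.68, adjusted p = 0.00103). Its fall of 1.45-fold was short of the 1.5-fold that a call needs, and 2 of its 4 tested probes were called down. Among the binding proteins, Igfbp2 rose 3.41-fold (1.67 and 1.87, adjusted p = 5.37e-05), Igfbp3 fell 2.33-fold (-1.03 and -1.42) and the acid-labile subunit Igfals fell 1.51-fold (-0.63 and -0.56). The prolactin receptor Prlr fell 3.10-fold (-1.53 and -1.74) in males and read -0.05 in females. Bcl6, a repressor that competes with STAT5, read 0.64 and 1.27 (adjusted p = 0.255), and the feedback inhibitor Socs2 read -0.75 and -1.34 (adjusted p = 0.119). Without replicate 2, 1 gene of the axis was called down, and without replicate 1, 1 was called up.

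Of 30 measured transcription factors of the liver, 4 were called up (13.3%) and 2 down (6.7%), shares near those of all genes. The hepatocyte factors Hnf4a (-0.08 and 0.40) and Foxa3 (0.09 and -0.01) were among those not called. The estrogen receptor Esr1 fell 2.37-fold (-1.38 and -1.11) in males and read 0.36 in females. Cebpb, a factor of the acute phase and of gluconeogenesis, rose 2.17-fold (1.05 and 1.19), and Zbtb20, a repressor of alpha-fetoprotein, rose 1.52-fold (0.65 and 0.56). After normexp background correction, 2 factors were called up.

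Genes of lipid synthesis were called in one direction. Of 23 cholesterol synthesis genes, 6 (26.1%) were called down and none up (median -0.52), and of 19 lipogenic genes 6 (31.6%) were called down and none up (median -0.50). Among the called cholesterol genes, Fdps, which encodes farnesyl diphosphate synthase, fell 1.75-fold. The lipase Pnpla3 gave 5,081 and 5,389 in M3 and 645 and 447 in M8, a 9.74-fold fall (-2.98 and -3.59). Acly, which supplies acetyl-CoA, fell 2.01-fold, fatty acid synthase (Fasn) 1.95-fold and the regulator Srebf1 1.76-fold, while the desaturase Scd1 read 0.28 and 0.25. Without replicate 1 and without replicate 2, 1 and 2 cholesterol genes and 2 and 3 lipogenic genes were called.

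Bile acid genes held more rises than falls. Of 19, 7 (36.8%) were called up and 1 down, and the median log2 ratio was 0.40. Cyp8b1, the 12-alpha-hydroxylase of cholic acid synthesis, gave 3,355 and 3,667 in M8 and 1,398 and 1,315 in M3, a 2.59-fold rise (1.26 and 1.48, adjusted p = 0.00126). The sterol exporter Abcg8 rose 2.30-fold (1.26 and 1.14) and the organic anion transporter Slco1b2 1.90-fold (1.17 and 0.68). Cyp7a1, the rate-limiting enzyme of the classical pathway, read -0.39 and -0.30 (adjusted p = 0.369). Akr1d1, a steroid 5-beta-reductase, fell 1.53-fold (-0.53 and -0.70), and was not called without replicate 1.

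Genes of fuel metabolism were called about as often as all genes. Of 21 genes of fatty acid oxidation and ketogenesis, 1 was called up (4.8%) and 3 down (14.3%). The pantetheinase Vnn1 fell 5.63-fold (-2.08 and -2.91) and the hormone gene Fgf21 3.00-fold (-1.86 and -1.31). Without replicate 1 none of the list was called, and without replicate 2 only 1 gene, which fell, was called. In glucose metabolism Pck1, the gluconeogenic carboxykinase, rose 2.56-fold (1.13 and 1.58), which was not called without replicate 2, and Pfkfb1 and Ppp1r3c, regulators of glycolysis and of glycogen, fell 1.92-fold and 1.79-fold. Of 24 genes of the urea cycle and amino acid breakdown, 20 were not called. Tdo2, which degrades tryptophan, rose 1.79-fold (1.03 and 0.66), the serine dehydratase Sds 2.01-fold (0.74 and 1.27), and Mat1a, which makes S-adenosylmethionine, fell 1.63-fold (-0.64 and -0.77). With either replicate left out, 1 gene of the list was called up and 1 down.

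Drug-metabolizing enzymes outside the male-biased and female-biased lists changed in both directions, with 4 of 18 called up and 4 down. The 4 that fell read lower in males at 8 weeks, with log2 M8/F8 of -3.02 (Cyp2c37), -2.36 (Cyp2b10), -1.18 (Cyp2c50) and -1.12 (Fmo1). For the 4 that rose, log2 M8/F8 lay between -0.19 (Cyp2e1) and 1.00 (Cyp2f2). Cyp2c37 fell 3.94-fold (-2.44 and -1.52) in males and read 0.62 in females, and Cyp2b10, the classical target of the receptor CAR, fell 3.79-fold (-2.17 and -1.67) and read 0.96 in females. Cyp2f2, which activates naphthalene, gave 232,924 and 199,746 in M8 and 64,841 and 37,810 in M3, a 4.36-fold rise (1.84 and 2.40). Cyp2e1, the ethanol-inducible enzyme, rose by 0.59 (0.27 and 0.90), just past the limit of a call. Of 11 genes that mark the region around the central vein or respond to Wnt, the aminotransferase Oat (0.73 and 0.59) and the glutamate transporter Slc1a2 (0.94 and 0.86) were called up (1 gene without replicate 1), the secreted factor Lect2 was called down (-1.17 and -1.23), and glutamine synthetase (Glul) read 0.07 and 0.23.

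In iron and heme metabolism the hepcidin genes differed. Hamp, which encodes the iron-regulating hormone, rose 2.36-fold (0.91 and 1.56), and its relative Hamp2 fell 5.36-fold (-2.25 and -2.59), although probes of such similar genes may share signal. Alas1, the first enzyme of heme synthesis in liver, gave 48,570 and 71,119 in M3 and 10,769 and 19,910 in M8, a 4.01-fold fall (-2.17 and -1.84), and the transferrin receptor Tfrc fell 2.55-fold (-0.96 and -1.74). Without replicate 2, Hamp was not called and 1 gene of the list was called down. Of 26 plasma protein genes 22 were not called, C9 was called up, and Ahsg, Alb and the transferrin gene Trf (-0.78 and -0.51) were called down, against 1 gene called down without replicate 2.

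Of 14 acute phase genes, the orosomucoids Orm1 (0.98 and 0.66) and Orm2 (0.85 and 0.75) and the constitutive serum amyloid Saa4 (0.83 and 0.95) rose, and Apcs, serum amyloid P, fell 2.25-fold (-1.51 and -0.82), which was not called without replicate 1. Saa1 and Saa2, the inducible serum amyloids, read 1.27 and 3.06 and 1.65 and 3.43 on the 2 arrays and were not called. The signal of Saa1 was 15,577 and 64,225 in the M8 pools of replicates 1 and 2 and 6,479 and 7,687 in the M3 pools.

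Clock genes held some large rises. Nr1d2 and Nr1d1 encode the REV-ERB repressors of the clock. Nr1d2 gave 5,527 and 6,592 in M8 and 631 and 629.8 in M3, a 9.58-fold rise (3.13 and 3.39, adjusted p = 0.000443), and Nr1d1 rose 7.76-fold (2.87 and 3.04). Dbp and Tef, transcription factors of the clock output, rose 6.74-fold (2.42 and 3.09) and 2.39-fold (1.05 and 1.46). Cry1 and Per2, further parts of the feedback loops, fell 2.67-fold (-1.08 and -1.76) and 2.00-fold (-0.98 and -1.03), and 12 of 19 genes were not called. In F8/F3, Nr1d2 read 3.28, Nr1d1 3.04, Dbp 2.98 and Cry1 -1.91. These transcripts cycle over the day, the hour of collection is not given, and age and hour cannot be told apart for them. Without replicate 2, 2 genes were called up and 1 down.

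Of 14 interferon-induced genes, 7 were called down and none up, with a median of -0.67. The chemokine Cxcl10 fell 4.37-fold (-1.89 and -2.36) and the ubiquitin-like Isg15 fell 1.52-fold (-0.53 and -0.67), while the transcription factor Irf7 (0.45 and 0.15) was not called. Without replicate 1 and without replicate 2, 4 and 2 genes of the list were called down. None of 7 MHC class II genes, which present antigen, and none of 23 ribosomal protein genes was called, the latter with a median of -0.15.

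Some called genes were measured at only one age, which gives a lower bound. Such genes passed the background filter through that age alone. Their adjusted p belongs to a fitted ratio over background-level values and not to the bound. Of the genes called up, 113 were not above background in M3 on either array, and of those called down 194 were not above background in M8. The largest bounds of a rise were those of BC051665 (at least 2.35-fold, adjusted p = 0.00058), the olfactory receptor gene Olfr677 (at least 2.12-fold, adjusted p = 0.00053) and the muscle myosin Myh2 (at least 2.10-fold, adjusted p = 0.000148). Slc22a16, a carnitine transporter, was at least 1.80-fold higher, and Olfr394 and G6pc2, a glucose phosphatase of pancreatic islets, were each at least 1.66-fold higher. Whether Mup transcripts bound to the probes of these 6 genes was not tested. The largest bounds of a fall were those of Lypd10 (at least 3.27-fold, adjusted p = 0.000337), Cstdc5, a cystatin-domain gene (at least 2.54-fold, adjusted p = 0.00263), and Rhd, a red cell antigen (at least 2.48-fold, adjusted p = 0.00151). Plppr1 was at least 2.19-fold lower, and Cdc6, which loads the replicative helicase, at least 2.14-fold.

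The 2 arrays differed most for a few genes above background at both ages. The metallothionein Mt2, induced by metals and stress, gave 8,042 and 106,186 in the M8 pools of replicates 1 and 2 and 5,163 and 5,760 in M3 (log2 ratios 0.64 and 4.20, adjusted p = 0.272). Cyp1a1, which is induced through the aryl hydrocarbon receptor, gave 142 and 1,092 in M8 and 93.9 and 84.5 in M3 (0.60 and 3.69). In both genes the M8 pool of replicate 2 was the highest of the 4 pools. Zfp605, a zinc finger gene, read 2.07 and -1.42, Cdh16, a cadherin of kidney, -1.56 and 1.26 and Prim2, a primase subunit, -0.10 and -3.14, and none of them was called. Cdh16 also read -1.19 and 0.81 in F8/F3 and -1.18 and 0.87 in M8/M4, whose dyes were swapped in the same order. Sybu (-3.82 and -6.69) also belonged to the genes that differed most, although both arrays gave a fall.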

How the data were processed

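Liver RNA of 14 two-colour Agilent mouse arrays was used, of which 2 compared M8 with M3. Total RNA was extracted with Trizol, pooled, amplified as aminoallyl RNA and coupled to Alexa 555 (green) or Alexa 647 (red). The deposited scanner files, made by the authors with Agilent Feature Extraction 10.7.1.1, hold log10 ratios of red over green after linear and LOWESS dye normalization, and the deposited processed and mean intensity of each channel. A ratio of exactly 0 stood at 9030 and 7242 spots of the 2 arrays, none of them well above background in either channel.

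Each ratio was turned to M8 over M3 by the channel labels, converted to log2, and averaged over the spots of a probe without control spots and spots flagged as non-uniform. All 14 arrays were fitted with limma 3.58.1 (R 4.3.3), with 1 coefficient for each of the 7 comparisons and a dye term per probe, since 2 arrays alone leave 1 degree of freedom. The p-values were adjusted (Benjamini-Hochberg) over all probes and comparisons, and for the sex difference over all probes of that contrast. A call needed an adjusted p below 0.05, a ratio past 1.5-fold and at least 1 age well above background on both arrays. The probe with the highest mean signal stood for a gene. Of 39,429 probes, 26,055 were named through RefSeq accessions. The columns of all samples were used (0 left out). Where an age was not above background on either array, the fold is a bound: the mean of the measured age over the higher of the lowest signals counted as above background and the dim probe's own.

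The genes named were the 15 with the largest rise and the 15 with the largest fall above background at both ages, the 6 largest bounds per direction, the 10 largest sex differences per direction, the 6 genes whose arrays differed most, and members of gene lists and families. Some genes that these rules select are not reported here. The members of the lists and the comparison itself were chosen with earlier results of these data known. Pools of different comparisons may be the same RNA, so M8/M3, M8/M4, M8/F8 and M3/F3 are not independent.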

Additional observations from a re-analysis of the deposited data

Results flagged for a closer look

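The change from 3 to 8 weeks was called different in males and females, by the test of M8/M3 minus F8/F3, in 389 genes with a higher and 347 with a lower change in males, and 71 of the genes named in the report were among them. Values are log2 differences with both arrays of each sex in the fit, and each passed an adjusted p below 0.05 in limma.

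The change was higher in males for the secreted and complement genes Mup20 (3.26), Mup5 (2.49), C6 (2.81), C8a (1.30), C9 (1.58), Susd4 (2.73) and Obp2a (5.32), for the enzymes Cyp4a12a (4.36), Cyp4a12b (3.91), Cyp2d9 (2.39), Cyp2u1 (1.48), Cyp2f2 (1.18), Gstp1 (3.67), Gstp2 (3.60), Nat8f5 (4.03), Nox4 (3.61) and Alas2 (1.64), and for Igfbp2 (1.66), Abcg8 (0.68), Slc22a28 (0.91), S100a8 (0.72), Lama3 (3.81), Omd (3.64) and Cspg5 (3.42). It was also higher for Lipn (2.99), Cryaa (2.57), Atp12a (2.44) and Rhox2e (2.48), and for BC051665 (2.98), Olfr677 (3.65), Olfr394 (2.77), Myh2 (2.01), Slc22a16 (2.48), G6pc2 (2.69) and Cyp4a30b (3.62), of which the last 7 were not well above background in M3, so that the size of their difference is a fitted value that depends on the background level. The mean ratios of Lipn, Cryaa, Atp12a and Rhox2e lay within 0.51 of that of Mup5 (log2) in M8/M3, M8/M4, F8/F3 and M8/F8, and whether Mup transcripts bound to their probes was not tested.

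The change was lower in males for the sulfotransferases Sult3a1 (-9.69), Sult3a2 (-7.96), Sult2a2 (-6.08), Sult2a1 (-5.03), Sult2a4 (-4.82) and Sult2a6 (-4.39), the cytochromes Cyp3a44 (-6.82), Cyp2b9 (-5.24), Cyp2b13 (-4.69), Cyp2b10 (-2.88), Cyp3a41b (-2.80), Cyp2c37 (-2.59), Cyp2a4 (-2.33), Cyp4a10 (-2.24), Cyp17a1 (-2.22), Cyp4a31 (-1.81), Cyp3a16 (-1.36) and Cyp4a32 (-1.05), and the transporters Slc22a27 (-5.28), Slc22a26 (-5.25) and Slc22a29 (-4.51). Among regulators and receptors it was lower for Cux2 (-5.34), Tox (-2.59), Trim24 (-1.76), Esr1 (-1.61) and Prlr (-1.58), and among other genes for A1bg (-6.73), Rsph4a (-4.78), Hamp2 (-2.92), Plppr1 (-2.79), Mat1a (-1.06), Oat (-0.88), Lect2 (-0.87), Igfals (-0.70), Akr1d1 (-0.67) and Igf1 (-0.61). Igf1, Cyp17a1, Cyp2a4 and Cyp3a16 were not called in M8/M3 itself, and Cux2 and Plppr1 were not well above background in M8, so that the size of their difference depends on the background level as well. The value of Cyp3a16 is not that of this gene alone, since its probe is reported to cross-hybridize with Cyp3a11.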

How the results depend on the processing

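Counts are given as genes up, down, higher than in females and lower than in females, with 1776, 1793, 389 and 347 as reported. Normexp background correction gave 911, 950, 170 and 252, and background-subtracted signals without loess gave 1375, 1827, 198 and 193, with 42.9% instead of 49.8% of the called genes up. The deposited series table gave the reported counts. Shared pools as a random effect gave 1599, 1534, 209 and 229. The 2 arrays alone, with limma, gave 0 up and 0 down, and 1430 up and 1505 down at an unadjusted p below 0.05. An unadjusted p below 0.0001 gave 958, 945, 139 and 120, no threshold on the ratio 4366, 3832, 698 and 626, and a ratio above 2 gave 832, 944, 245 and 167. Without replicate 1 or without replicate 2, 1294 to 1463 genes were up, 1261 to 1457 down, 142 to 184 higher and 133 to 162 lower, in fits where the lone array was assumed to vary like the others. The replicate number as a block gave 1787, 1814, 395 and 390, with 1745 and 1745 of the genes up and down shared. The deviations of the M8/M3 arrays correlated with those of same-numbered arrays by 0.689 for M8/M4, 0.373 for M8/F8, -0.549 for M3/F3 and 0.0583 for F8/F3, and no pairing was assumed for M8/M3 and F8/F3. The dye term, the slide as a block, the filters on background, adjustment within the comparison and the error-weighted average kept the counts they gave within 1.5 times of those reported. The cause of the differences under normexp, without loess and with shared pools was not tested. A fit on probes above background alone, chosen after the data were seen, gave 1871, 1953, 506 and 451.

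Among the 203 genes named, those that reversed had not been called. Leaving out replicate 1 or replicate 2 gave log2 ratios of -0.47 to 0.10 for Apob, -0.46 to 0.16 for Cdh16, -0.0804 to 0.36 for Cyp2a4, -0.31 to 0.19 for Cyp3a11, -0.0321 to 0.12 for Foxa3, -0.0828 to 0.40 for Hnf4a, -0.30 to 0.19 for Stat5a, -0.55 to 1.61 for Sult1e1 and -1.30 to 1.95 for Zfp605. Normexp gave 0.0125 for Col15a1, the error-weighted average 0.0527 for Cdh16, and the median over probes 0.0646 for Cyp3a11. Calls were lost for 21 genes without replicate 1, for 35 without replicate 2, for 9 after normexp, for 17 without loess, for 25 at a ratio above 2, for 50 at an unadjusted p below 0.0001 and for 160 with the 2 arrays alone. With 2 arrays and pooled animals, precision is limited by their number, and dim genes give only bounds.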
